A study of Mus musculus with 3 samples.

Results

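The 9 genes described here are Hmga1, Hmga2, Igf2bp1, Igf2bp2, Igf2bp3, Lin28a, Lin28b, Anxa1 and Fas. They are genes outside the Hox clusters that have been reported as targets of the microRNA miR-196, together with their oncofetal relatives, genes that are active in the fetus and return in tumors. Each was taken by its symbol, 1 row a gene, from a table of 28074 gene symbols, and all 9 had a row. The values come from 3 acute myeloid leukemias that make up the only group of the series. Each was taken from the spleen of 1 moribund mouse. Per the genotype label the mice were miR196b-/-Dnmt3afl/fl,Flt3ITD/ITD,Mx1Cre. They lacked miR-196b, had floxed alleles of the DNA methyltransferase gene Dnmt3a, carried an internal tandem duplication on both copies of the receptor gene Flt3, and expressed Cre from the interferon-inducible Mx1 promoter, which is active in blood cells and in other tissues. The titles instead give 1 remaining Dnmt3a allele (Dnmt3a+/-), and the labels do not settle which genotype applies. Splenocytes were freed of red cells and enriched for the receptor c-Kit with magnetic beads before RNA extraction. No leukemia with intact miR-196b was analysed here, so no value below measures an effect of the deletion. The mice are called 1, 2 and 3 in the order of their records, an order with no meaning of its own.

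MicroRNAs guide Argonaute proteins to messenger RNAs by pairing of a short seed near their 5′ end, mostly with sites in the 3′ untranslated region (3′ UTR), and lower the stability and translation of the target. miR-196b is encoded in the Hoxa cluster, and the related miR-196a is encoded in the Hoxb and Hoxc clusters. The let-7 family rises as tissues mature and represses Hmga2, the Igf2bp genes and the Lin28 genes, while the Lin28 proteins block the maturation of let-7. In blood, Lin28b, Hmga2 and the Igf2bp genes are known as parts of the fetal stem cell program.

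The mature miRNAs and the candidate target sites are shown first because their letters overlap. The miRNA sequences below are from RefSeq (GRCm38.p6), where all 3 names looked up were found, with the seed (bases 2 to 8) in capitals.
miR-196b-5p: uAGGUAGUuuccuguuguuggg
miR-196a-5p: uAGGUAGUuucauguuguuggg
let-7a-5p: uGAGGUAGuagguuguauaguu
The miR-196b-5p locus is chr6:52230129-52230150 on the minus strand. The 2 mature miR-196 forms shared the seed AGGUAGU and differed at 1 base, C12A, counted from the 5′ end. The let-7a seed GAGGUAG was shared by 11 mature names in the same table. The miR-196 seed is the let-7 seed moved by 1 base, so the site words that pair with the whole seed, 1 for each family, share the 6 letters CTACCT.

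The longest annotated 3′ UTR of each gene (GENCODE M21, GRCm38) was searched on the transcript strand. For miR-196 the words were ACTACCT (pairing with bases 2 to 8), CTACCTA (bases 2 to 7 followed by A) and ACTACCTA (both). For let-7 the words of the same 3 kinds were CTACCTC for bases 2 to 8, then TACCTCA for bases 2 to 7 with A, and CTACCTCA for both. A match is a description of letters and does not show a working site. Up to 30 bases of 3′ UTR that end with a match are printed for 8 of the 13 miR-196 matches found, with the letters of the miR-196 match and of any let-7 match that shares bases with it in capitals. They were chosen to show each gene with a match, and for Lin28b both kinds.
Hmga1, chr17:27563269-27563298, plus strand: ccatcttctcctctgttcacaaACTACCTC
Hmga2, chr10:120362988-120363017, minus strand: gcaataatccccactcctcaatACTACCTC
Igf2bp1, chr11:95961778-95961807, minus strand: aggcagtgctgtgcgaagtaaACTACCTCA
Igf2bp3, chr6:49086787-49086816, minus strand: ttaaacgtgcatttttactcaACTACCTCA
Lin28a, chr4:134005189-134005218, minus strand: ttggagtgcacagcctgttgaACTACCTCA
Lin28b, chr10:45378649-45378678, minus strand: tacgtacatatacttgttagtaACTACCTC
Lin28b, chr10:45378554-45378583, minus strand: aaagtcttgtaaagcggaattccACTACCT
Fas, chr19:34327325-34327335, plus strand: aaACTACCTCA

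A miR-196 match was found in 7 of the 9 genes, against 10.4% of the 20980 other genes with an annotated 3′ UTR. The genes are reported targets and their relatives, and reports of targets often start from such matches, so this count is not independent of how they were chosen. Igf2bp1, Hmga2 and Lin28b each held 3 matches, a number that 0.257% of the other genes reached. Hmga1, Igf2bp3, Lin28a and Fas held 1 each. Igf2bp2 had a 6-base match alone, and Anxa1 had none of any kind in its 3′ UTR of 286 bases, nor a 7-base match in the rest of its transcript. All 13 matches were of the ACTACCT type and 0 of 13 were the 8-base word, which made up 10.9% of miR-196 matches in other genes.

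Of these 13 matches, 12 shared bases with a let-7 match, because the next base was C and gave the joint word ACTACCTC. Among 1401 copies of ACTACCT in the 3′ UTRs of other genes, the next base was C in 25.9%. The exception was the Lin28b match printed above that ends in ACTACCT, where the next base was G. Most of the 9 genes are known let-7 targets, so overlaps with let-7 matches are not independent of how the genes were chosen. The joint word was present in 7 of the 9 genes and in 1.67% of the other genes. In Igf2bp1, Igf2bp3, Lin28a and Fas it was followed by A and so held the 8-base let-7 word, at all 3 positions in Igf2bp1. In Hmga1, Hmga2 and Lin28b the overlapping let-7 match was 7 bases long. By comparison, 8 other reported targets (Erg, Cdkn1b, Bach1, Nfkbia, Ing5, Foxo1, S100a9 and Nme4) held 7 miR-196 matches in 6 genes, and 2 of the 7 shared bases with a let-7 match, in Bach1 and Nme4.

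let-7 matches were found in 8 of the 9 genes, against 14.9% of other genes. Most of the 9 are known let-7 targets, so this count too is not independent of how they were chosen. The let-7 matches numbered 24 in all. Hmga2 held 7 of them, Igf2bp1 and Lin28b held 5 each, and Lin28a and Igf2bp2 held 2 each. Of these, 12 of 24 lay apart from any miR-196 match. The first let-7 match of Hmga2, at bases 58 to 65 after the stop codon, and that of Lin28b, at bases 36 to 43, were 8-base words of this kind. A further 2 let-7 matches of Hmga2 and 1 of Lin28b lay before the 3′ UTR, where no miR-196 match was found in any of the 9 genes. Both let-7 matches of Igf2bp2 also stood alone. The miR-196 match of Fas began at base 3 after the stop codon and its let-7 match at base 4, in an annotated 3′ UTR of 448 bases.

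**Figure D1:**
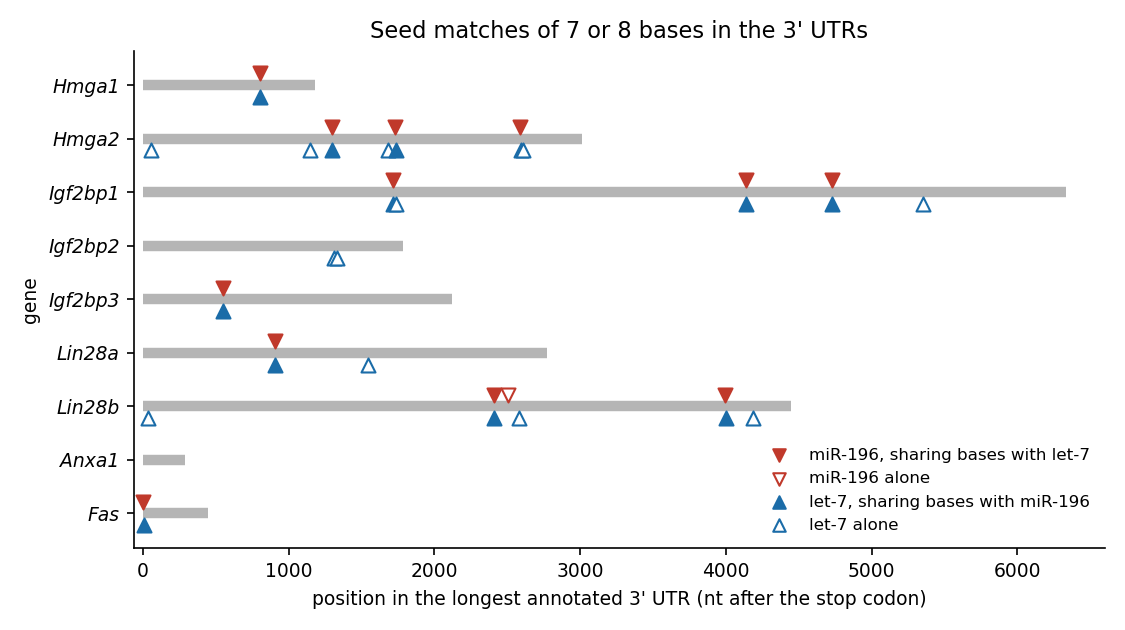
Seed matches of 7 or 8 bases along the longest annotated 3′ UTR of each gene, drawn to scale, with position in nucleotides after the stop codon on the horizontal axis and genes on the vertical axis. Red triangles are miR-196 matches and blue triangles let-7 matches, filled where the 2 share bases: 12 of 13 red triangles are filled and Anxa1 has no triangle.

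The 3′ UTRs of these genes differ widely in length, from 286 bases in Anxa1 to 6337 bases in Igf2bp1, and longer ones hold more matches: 0.994% of genes with under 250 bases had a miR-196 match and 48.0% of those with at least 6000. For each gene, the share was therefore read among other genes whose 3′ UTR was within 20% of the same length. A miR-196 match was held by 39.0% of genes of the length of Igf2bp1, 32.1% of the length of Lin28b, 20.6% of the length of Hmga2, 18.5% of the length of Lin28a and 14.9% of the length of Igf2bp3. For Hmga1 it was 8.27% and for Fas 3.16%. A let-7 match was more common, in 52.8% of genes of the length of Igf2bp1, 39.2% of that of Lin28b, 27.5% of that of Hmga2 and 5.95% of that of Fas. The joint word was less common at each length, in 8.01% of genes of the length of Igf2bp1, 2.85% of that of Hmga2, 1.15% of that of Hmga1 and 0.421% of that of Fas. At least 3 miR-196 matches were held by 1.96% of genes of the length of Igf2bp1, 0.867% of that of Lin28b and 0.357% of that of Hmga2.

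**Figure D2:**
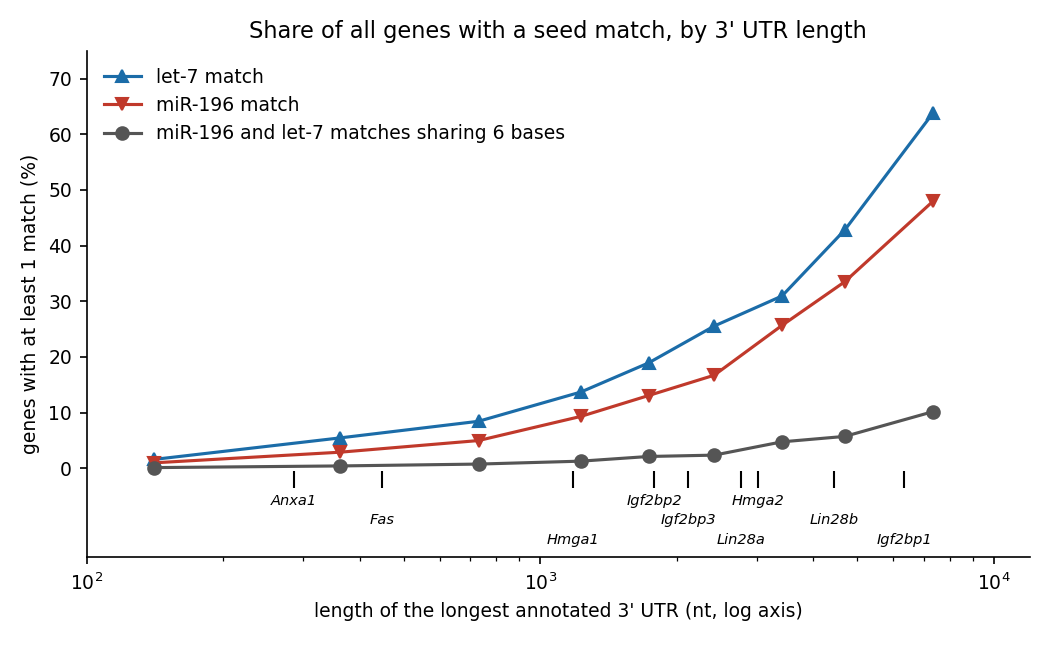
Share of all genes with at least 1 match, in percent, against the length of the longest annotated 3′ UTR in nucleotides (log axis), with each point at the median length of 1 of 9 length classes; black ticks mark the 9 genes. The share with a miR-196 match rises with length, and the line of joint matches stays lowest in every class.

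Isoforms matter for 2 genes. Of 17 coding isoforms of Hmga1 with an annotated 3′ UTR, 6 held the match, which lies at base 800 of the longest. Of 3 isoforms of Fas, 2 held the match. The table gives 1 value a gene, so these isoforms cannot be told apart in the levels below.

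Levels are given as TPM, a transcript abundance already divided by transcript length and scaled to a fixed total per library, so levels of different genes can be set side by side. Of the 9 genes, 7 reached 1 TPM in all 3 mice, against 50.7% of all symbols. The lowest value inside that threshold was Lin28a in mouse 1 at 1.11 TPM. Igf2bp2 missed it in mouse 2 at 0.728 TPM, and Lin28b missed it in every mouse. At least 1 mouse passed for 8 of the 9 genes, against 56.7% of all symbols.

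Hmga1 and Hmga2 encode small chromatin proteins that bind AT-rich DNA through AT hooks. Hmga1 had 389 TPM in mouse 1, 262 in mouse 2 and 296 in mouse 3. The mean was 315 ± 65.8 (SD, n = 3), higher than 97.5% of 15181 expressed genes, those whose mean reached 1 TPM. Mouse 1 was the highest and stood 1.31 times above mouse 3. Hmga2 had 19.8, 18.5 and 16.2 TPM, a mean of 18.2 ± 1.82 (SD, n = 3), which is near the median of expressed genes, 17.5 TPM. The 3 mice were close together for Hmga2, with 1.22 times between the highest and the lowest. Hmga1 was 19.6, 14.2 and 18.2 times as high as Hmga2 in the 3 mice, so the gap between these paralogs was far wider than the spread of either. Reads that Hmga1 shares with near-identical sequence elsewhere make its value uncertain.

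Igf2bp1, Igf2bp2 and Igf2bp3 encode RNA-binding proteins that stabilize messenger RNAs such as Igf2 and Myc. Igf2bp1 was the highest of them in all 3 mice, with 8.53, 9.90 and 8.62 TPM and a mean of 9.02 ± 0.764 (SD, n = 3). These values spanned 1.16 times, the narrowest of the 9 genes. Igf2bp3 had 2.66, 3.86 and 6.56 TPM, a mean of 4.36 ± 2.0 (SD, n = 3), and was highest in mouse 3 by 1.70 times over mouse 2. Igf2bp2, the member of the family that adult tissues usually keep, was the lowest in all 3 mice, with 1.64, 0.728 and 1.49 TPM and a mean of 1.29 ± 0.491 (SD, n = 3). Mouse 2 was low for Igf2bp2, 2.05 times below mouse 3. Of the summed TPM of the family, Igf2bp1 made up 66.5%, 68.3% and 51.7% in mice 1, 2 and 3, and Igf2bp3 made up 20.7%, 26.7% and 39.3%.

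Lin28a and Lin28b encode the RNA-binding proteins that block let-7 maturation. Lin28a had 1.11, 1.66 and 5.08 TPM, a mean of 2.62 ± 2.15 (SD, n = 3). Mouse 3 stood apart, 3.06 times above mouse 2 and 4.58 times above mouse 1. Lin28b, the paralog usually linked to fetal blood, had 0.207, 0.381 and 0.526 TPM, a mean of 0.372 ± 0.16 (SD, n = 3). It was the lowest of the 9 genes in each mouse. Lin28a was 5.36, 4.37 and 9.66 times as high as Lin28b. TPM keeps no depth, so the number of reads behind these low values is unknown and no counting error can be given.

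Anxa1 and Fas are the reported targets outside the oncofetal group. Anxa1 encodes annexin A1, a phospholipid-binding protein abundant in myeloid cells that dampens inflammation through formyl peptide receptors. It had 443, 572 and 511 TPM, a mean of 509 ± 64.9 (SD, n = 3), above 98.4% of expressed genes and the highest of the 9 in every mouse. Fas encodes a death receptor of the TNF receptor family. It had 2.60, 2.81 and 2.24 TPM, a mean of 2.55 ± 0.289 (SD, n = 3), with 1.26 times between the highest and the lowest mouse. Fas was thus low and even, and Anxa1 high and even.

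From high to low the means ran Anxa1, Hmga1, Hmga2, Igf2bp1, Igf2bp3, Lin28a, Fas, Igf2bp2, Lin28b. Neighbors in this order did not overlap between mice except for 2 pairs. Igf2bp3 and Lin28a overlapped, although Igf2bp3 was higher within each of the 3 mice. Lin28a and Fas overlapped and changed places: Fas was higher in mice 1 and 2 and Lin28a in mouse 3, so their means of 2.62 and 2.55 TPM did not differ beyond the spread.

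**Figure D3:**
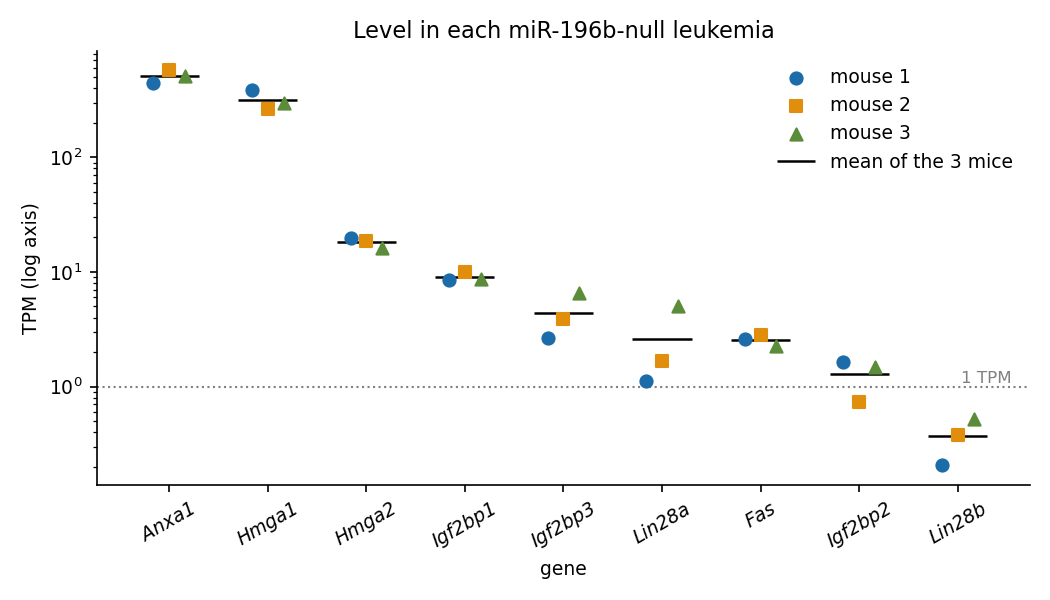
TPM on a log axis for the 9 genes, 1 symbol per mouse and a black line at the mean of the 3 mice, ordered by mean, with a dotted line at 1 TPM. Anxa1 and Hmga1 lie above 200 TPM in every mouse, and mouse 3 is set apart for Lin28a at 5.08 TPM.

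The spread between mice was computed as the SD on the log2(TPM + 1) scale. It was largest for Lin28a at 0.80, higher than for 97.2% of expressed genes, and next for Igf2bp3 at 0.53, higher than for 91.6%. Igf2bp2 followed at 0.33 and Hmga1 at 0.29. Anxa1 (0.19), Hmga2 (0.14), Fas (0.12) and Igf2bp1 (0.11) lay under the median of expressed genes, 0.21. On the values as deposited, the highest and lowest mouse differed by at least 2-fold for 3 of the 8 genes that were expressed by this measure, namely Lin28a, Igf2bp3 and Igf2bp2. The same was true of 13.8% of all genes at that level, and of 27.1% of genes with a mean from 1 to 10 TPM, the range that holds those 3 genes. Without mouse 3 the count was 1, Igf2bp2. The SD was 0.24 for Lin28a and 0.29 for Igf2bp3 without mouse 3, 0.06 for Igf2bp2 without mouse 2 and 0.12 for Hmga1 without mouse 1. With 3 values, leaving out the most distant always lowers the SD, so these falls do not show that 1 mouse set a spread. The median of expressed genes, 0.21, is over all 3 mice. No median over 2 mice was computed, so the SDs with a mouse left out were not set against other genes. Igf2bp3 rose 1.45 times from mouse 1 to mouse 2 and 1.70 times from mouse 2 to mouse 3.

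**Figure D4:**
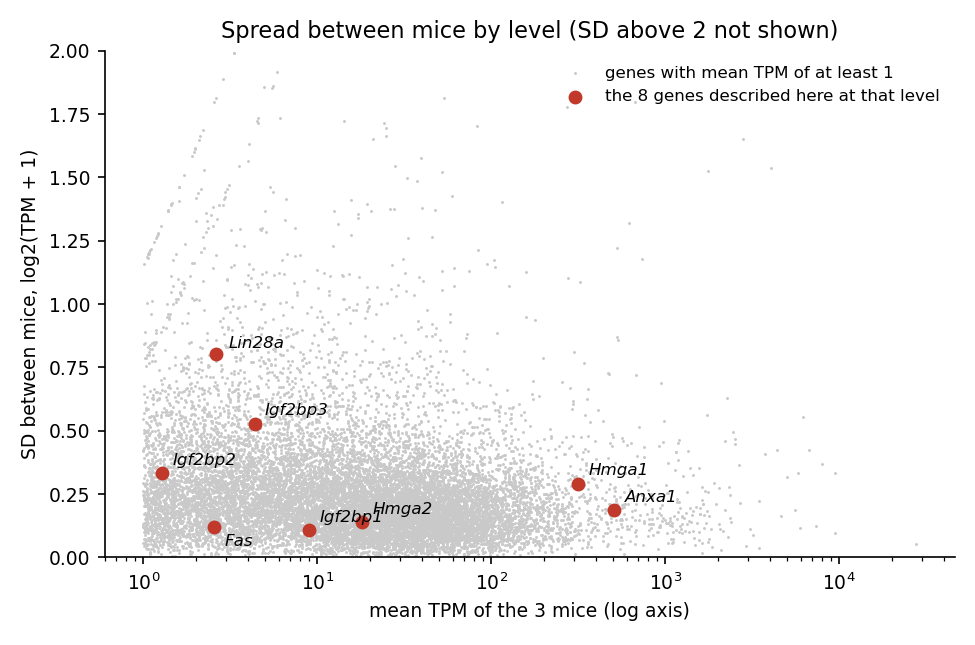
SD between the 3 mice on the log2(TPM + 1) scale against mean TPM (log axis); each grey point is 1 expressed gene (mean of 1 TPM or more), and red points are the 8 of 9 genes at that level, Lin28b being below it. Lin28a has the highest SD of the red points at 0.80, while Fas and Igf2bp1 lie at 0.12 and 0.11.

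Lin28a, Lin28b and Igf2bp3 shared 1 order of mice, lowest in mouse 1 and highest in mouse 3, an order found in 9.99% of expressed genes. Mouse 3 was the highest for 20.3% of expressed genes and for these 3 genes alone of the 9. It was at least 2-fold above mouse 1 in all 3 of them, and in 4.14% of expressed genes. That share is not a like comparison, because the 3 genes were singled out by their order and have low levels. A 2-fold difference in any order was found in 27.1% of genes from 1 to 10 TPM, against 13.8% of all expressed genes. All 3 genes kept the order after the libraries were scaled to a common upper quartile, where 16.0% of expressed genes had it. That scaling lowered mouse 1 and raised mouse 3 most, so this order could not be lost and the check is empty. Lin28b is under the level of the genes counted in these shares. Levels of cell type markers also differed between the mice. All 9 neutrophil markers, 8 of them detected in every mouse, were lowest in mouse 1 and highest in mouse 3, and their summed level was 2470, 6463 and 21509 TPM. The 7 B cell markers, 3 of them detected in all mice, summed to 49.4, 91.5 and 125.7 TPM. Most of that sum was Ighm (32.2, 76.8 and 107.7 TPM), while the other 2 detected markers, Cd79b and Ebf1, were highest in mouse 1. Erythroid markers, 6 of 7 of them detected, were highest in mouse 3 at a sum of 93.2 TPM, against 50.5 and 35.2 TPM in mice 1 and 2. Stem and progenitor markers went the other way, at 1045, 772 and 743 TPM. Dendritic markers, 8 of 8 detected, were highest in mouse 2 (507, 952 and 641 TPM). Mast cell and basophil markers summed to 131, 47.8 and 52.4 TPM, highest in mouse 1. T and NK cell markers summed to 169, 124 and 168 TPM, mostly Nkg7 (153, 101 and 143 TPM). Of the 7 T and NK cell markers with a mean of at least 1 TPM, 5 were lowest in mouse 1 and 4 were highest in mouse 3. Monocyte and macrophage markers summed to 386, 393 and 718 TPM, mostly Ly6c2 (291, 229 and 559 TPM). Of 5 of these with a mean of at least 1 TPM, 3 were highest in mouse 3. The median log2(TPM + 1) of the same list was instead highest in mouse 1 (2.12, 1.51 and 1.41). Megakaryocyte markers summed to 75.1, 48.5 and 92.3 TPM, with Pf4 at 6.73, 20.4 and 51.0 TPM. Of the 6 megakaryocyte markers, 3 were highest in mouse 1 and 3 in mouse 3. The part of these cells in the levels of Lin28a, Lin28b and Igf2bp3 was not tested. In bulk RNA fewer cells of a type and less RNA per cell cannot be told apart.

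The genes with the nearest profile over the 3 mice were found by Euclidean distance on the centered log2(TPM + 1) scale, for the 4 genes whose SD was 0.2 or more. With 3 samples many genes lie close: 461 of 15180 were within 0.1 of Hmga1, 113 of Igf2bp2, 30 of Igf2bp3 and 5 of Lin28a. The nearest to Lin28a were Dnaja4 (2.14, 2.83 and 7.60 TPM), Tnfsf13b (3.06, 4.43 and 10.9 TPM) and Fpr2 (3.70, 4.65 and 12.8 TPM), at distances of 0.0522, 0.0601 and 0.0724. Fpr2 is a formyl peptide receptor. For Igf2bp3 they were B430010I23Rik, Abhd5 and 1700047A11Rik, for Igf2bp2 Il12a, Fdx1 and 2010015L04Rik, and for Hmga1 Pknox1, Gbx2 and Bcl2l2.

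Of 15 genes of the let-7 maturation pathway with a row, 13 were detected in all mice, Lin28a among them, and Lin28b and Trim71 were not. The share over all symbols, 50.7%, stands beside this count and those of the lists below. Among its highest were Dgcr8, a subunit of the nuclear processing complex, at 89.0, 70.1 and 83.9 TPM, and Zcchc11, a uridylyl transferase that Lin28 proteins recruit to the let-7 precursor, at 74.6, 74.1 and 69.0 TPM. Lin28a was the only 1 of the 13 with a 2-fold difference between mice, against 13.8% of expressed genes. Trim71, a let-7 target of early development, had 0.0726, 0.0682 and 0.10 TPM.

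Of 25 genes listed as let-7 targets, which include 7 of the genes described here, 21 were detected in all mice. Hmga1 was the highest, followed by Myc at 258, 167 and 160 TPM. Igdcc3 was listed at 0 in all 3 mice. Of 9 fetal growth genes with a row, 6 were detected, led by the receptors Igf2r (46.1, 60.5 and 37.5 TPM) and Igf1r (23.9, 13.8 and 21.5 TPM), while the growth factor Igf2, an Igf2bp target, had 0.262, 0.377 and 0.846 TPM. Of 13 genes of the fetal and adult blood programs, 8 were detected. The embryonic globins Hbb-bh1, Hbb-y and Hba-x were listed at 0 in all mice. Ezh2, a Polycomb methyltransferase, was the highest of this list at 138, 139 and 153 TPM.

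Of 11 annexins, formyl peptide receptors and S100a11, the genes detected out of 16 listed, S100a11, a partner of annexin A1, was the highest at 489, 793 and 792 TPM. Anxa1 was the next highest of the list. Among the receptors, Fpr2 was detected, Fpr1 reached 1 TPM in 2 mice (0.872, 1.10 and 1.93 TPM) and Fpr3 was listed at 0. Of 17 genes of the Fas death pathway, 15 were detected and 0 differed by 2-fold between mice. Such differences were found in 13.8% of expressed genes and in 27.1% of those from 1 to 10 TPM. Most of the 15 lie above 10 TPM, so the 0 is not read as a trait of this pathway. Fas itself was the lowest of those detected. The highest mean was that of Cflar, an inhibitor of caspase-8, at 94.7, 107.8 and 95.2 TPM. The ligand Fasl, mostly made by T and NK cells, had 0.0377, 0.197 and 0.244 TPM. Of 11 Igf2bp genes and partners, 10 were detected. The highest were Pabpc1, the cytoplasmic poly(A)-binding protein, at 1747, 1329 and 1453 TPM, and Hnrnpu at 577, 576 and 584 TPM, levels far above the 9.02 TPM of Igf2bp1.

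Exons of 4 of the genes overlap a gene on the opposite strand that has a row: Hmga1 with AI413582 (40.7, 42.7 and 37.7 TPM), Hmga2 with 1700006J14Rik (5.99, 6.91 and 9.80 TPM), Igf2bp3 with Malsu1 (28.8, 24.6 and 27.2 TPM) and Lin28a with Gm13061 (0 in all mice). The labels name a stranded kit, but whether the quantification used strand is not given in the sources used here. They also disagree on how the RNA was selected, by ribosomal RNA depletion or with an mRNA kit, which bears on which RNAs the fixed TPM total is shared among. Reads of such pairs may therefore be split in a way the values do not show. Igf2bp3 had the order of mice described above and Malsu1 did not, while 1700006J14Rik had that order and Hmga2 did not. Whether reads of these pairs entered the values was not tested.

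The columns of the 3 mice summed to 929731, 927169 and 928490 TPM. The depth reached is unknown, so no counting interval or detection limit can be given. Of the labelled cell type, 7 genes of immature myeloid leukemia were looked at, all detected in each mouse, with Kit at 139, 149 and 133 TPM. The cells had been enriched for c-Kit, and the dendritic and the stem and progenitor markers were all detected too. Detection therefore does not single out the labelled type. Of 7 markers of spleen stroma and endothelium, 2 were detected, Pecam1 and Pdgfrb. Scaling to a common upper quartile moved mice 1, 2 and 3 by -0.08, 0.01 and 0.06 log2 units, and changed the order of mice for 1 of the 9 genes, Igf2bp2, where mouse 3 then came above mouse 1.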

How the data were processed

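RNA of 3 knockout leukemias was sequenced as paired reads of 150 nt. The authors deposited 1 table with a value per gene symbol, made with kallisto on mm10 per the submitters' processing notes. Its name says log2 FPKM, but the deposited values were linear, with column sums 0.276% apart, so they were read as TPM. The version, annotation and step from transcripts to genes are not given in the sources used here. Of 28987 rows, 795 without a symbol (0.532% to 0.608% of the sums) and 27 with a date for a symbol (0.179% to 0.202%) were left out, and 90 symbols on several rows were summed. Another 3 per-sample columns, of mice outside this series, were not used.

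Means and SDs were computed on TPM and on log2(TPM + 1), with 1 TPM as the threshold for detection. The 3′ UTRs came from 44648 coding transcripts of GENCODE M21 (GRCm38, the assembly of mm10), with the longest kept for each of 20989 genes. Seed words were matched exactly. With 1 group no test was possible, and no p-value is given. Named genes were the 9 genes, the 3 nearest profiles of each variable one, and the highest and lowest genes of preset lists. Other genes named with values, and the printed sites, were picked with their values known. The genes and lists were chosen with earlier results of these data known. The code was tested on simulated data. Alternatives covered the pseudocount, thresholds, scaling, each mouse left out, site type and isoform. Python 3.11.15, numpy 2.4.6, pandas 2.3.3 and matplotlib 3.10.9 were used.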

Additional observations from a re-analysis of the deposited data

How the results depend on the processing

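No paired analysis was possible because the series holds 1 group only. The 2-fold threshold on the log2(TPM + 1) scale and the search of whole transcripts were chosen after seeing the data. The number of genes with a 2-fold difference between mice was 3. It was 0 over genes with a mean of at least 5 TPM, and with each mouse left out in turn it lay between 1 (without mouse 3) and 2. On the log2(TPM + 1) scale it was 2. The number detected in all mice, 7, was 4 at a threshold of 5 TPM, and 7 to 8 with a mouse left out. The number with a miR-196 match, 7, was 0 for the 8-base word alone and 5 on the shortest 3′ UTRs. That with a let-7 match, 8, was 7 for the 8-base word alone and 6 on the shortest 3′ UTRs. Of 54 recomputed gene levels 50 stayed within 1 SD, and a pseudocount of 0.1 took 4 outside it. Leaving out 1 of 3 mice cannot move a mean by 1 SD. Each gene had 1 row, so leaving out repeated symbols changed nothing, and most of the 50 were fixed in advance. Upper-quartile scaling could move a level, and kept all 9 within 1 SD. Of 45 recomputed SDs 33 stayed within 1.5 times. TPM keeps no depth, so how far counting error enters Lin28a, Lin28b, Fas and Igf2bp2 cannot be stated.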

Other observations

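The joint word ACTACCTC occurred at least 3 times in the longest 3′ UTR of 4 of the 20989 genes. They were Hmga2 and Igf2bp1, described above, and Nr6a1 and D10Wsu102e, which were named after their values were seen. Nr6a1 encodes an orphan nuclear receptor of early development, and its 3′ UTR of 4453 bases held 3 copies. Its level was 2.55, 4.25 and 2.08 TPM in mice 1, 2 and 3, highest in mouse 2 and near that of Fas. D10Wsu102e has an annotated 3′ UTR of 122583 bases, in which 3 copies say little, and had 30.4, 22.2 and 22.3 TPM. Among 18 listed let-7 targets that are not among the 9 genes, 14 held a let-7 match and 5 a miR-196 match. Of their 5 miR-196 matches 1 shared bases with a let-7 match, in Nras, and 2 were 8-base words, in Plagl2 and Tgfbr1.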
